A study of Mus musculus with 12 samples.

Results

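The comparison described here sets RNA recovered with an antibody against RBM25 beside RNA recovered with IgG, both from mouse inner ear organoids in which Rbm25 had been knocked down. RNA immunoprecipitation followed by sequencing (RIP-seq) isolates an RNA-binding protein with an antibody and sequences the RNA that comes with it, and IgG, an antibody with no set target, measures what the procedure recovers by itself. The authors deposited a list of sites on mRNAs for each library. The 4 lists of this comparison came from 2 anti-RBM25 libraries (depleted IP 1 and depleted IP 2) and 2 IgG libraries (depleted IgG 1 and depleted IgG 2). Sites that shared 1 bp or more were merged into regions, which gave 1127 regions, out of 1548 when the 4 lists of control organoids were merged in as well.

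All organoids were grown from cochlear epithelium of mice at postnatal day 1 to 2, in Matrigel with growth factors and 3.5 µM of the GSK3 inhibitor CHIR99021. They were then differentiated with 3 µM CHIR99021 and 5 µM of the gamma-secretase inhibitor LY411575. Depleted organoids received a lentivirus that knocks Rbm25 down, although sample titles and genotype fields call them Rbm-KO. Control organoids received a control lentivirus and are labelled WT. Each genotype was harvested as 2 replicates, and no label says whether these came from separate animals or how far RBM25 protein fell, so the p-values below measure only the spread between these libraries. The cells that an organoid still holds, and the RNA each cell contributes, cannot be told apart in a bulk precipitate.

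RBM25 is a nuclear RNA-binding protein with an RNA recognition motif, an arginine and glutamate rich region and a PWI domain. It associates with U1 snRNP and with splicing coactivators, and it is best known for promoting a proapoptotic 5′ splice site in human BCL2L1 pre-mRNA through the exonic element CGGGCA. In a knockdown, the antibody is used on cells meant to hold less of its target, and the IgG lists of the same organoids are the background for each IP list.

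No genome sequence was used here, so bases could be read only where a site reached an annotated gene start, for which RefSeq windows on GRCm38.p6 give the sequence. Among regions found in no IgG list, 19 sites of depleted IP 1 and 3 of depleted IP 2 covered bases among the first 50 of their gene. The 3 of depleted IP 2 and 6 of depleted IP 1 are shown as examples of the recovered RNA whose letters could be set beside the CGGGCA element. Each line is the first 30 bases of the transcript strand, 5′ to 3′, with bases inside the listed site in capitals and any base before the site in lower case.
Bcl2l12: GGTTGCCGTGTCGGCCCAGTGCGCAGGCGT
Psmc2: AGACACCAGCGGAAGCGGGAAAGGTGCTGT
Pias1: GACGCAAGATGGCGGACAGTGCGGAACTAA
Ndufs7: AGAGGTTGTCTGAAGGCCGAGGCCAAGATG
Grsf1: ACTTCCCCTCCGCTCGCGCCACAGCGGCCA
Fibp: GAACTCCCGGAAGTCGCTCTGCGGCTACTC
Sephs2: AGGCAGCGTGGCTCGAGTCCTCCGGTCCGG
R3hdm4: acttcCTTCGCGGCCTCCGGCCGGGCTGCA
Dbi: CGAAGATGCTGTGGGTTTGGGGACAGCCGG

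Bcl2l12, a BCL2 family relative, starts at chr7:44997550-44997579 on the minus strand, Psmc2, a proteasome ATPase, at chr5:21786747-21786776 on the plus strand, and Pias1, a SUMO ligase, at chr9:62980850-62980879 on the minus strand. These were the 3 sites of depleted IP 2, with folds of 4707 in Bcl2l12, 1850 in Psmc2 and 35.7 in Pias1. The authors gave the Pias1 site a false discovery rate of 100%. The fold of a site is the authors' own enrichment ratio from peak calling, and it serves here to describe or rank sites within the list that holds it; folds of different lists are printed side by side, and apart from a test on the median of each list they are not compared. The other 6 belong to depleted IP 1. Ndufs7, a complex I subunit, starts at chr10:80249449-80249478 on the plus strand and had a fold of 4063 at its start. Grsf1, an RNA-binding protein of mitochondrial RNA granules, starts at chr5:88676142-88676171 on the minus strand with a fold of 1654. Dbi, the acyl-CoA-binding protein, lies at chr1:120120890-120120919 (minus strand, fold 859) and R3hdm4 at chr10:79916901-79916930 (minus strand, fold 787). Fibp lies at chr19:5460607-5460636 (plus strand, fold 538) and Sephs2, a selenophosphate synthetase, at chr7:127274030-127274059 (minus strand, fold 456). In 6 of the 22 sites the listed boundary fell exactly on the annotated start, among them those of Bcl2l12, Pias1, Grsf1, Fibp and Sephs2. The letters CGGGCA, searched on the transcript strand, occurred in the covered bases of 0 of the 22 sites, against 1.23% of all RefSeq windows in their first 50 bases (405 of 32851). This says only that the letters are not in these short stretches.

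The 2 IP lists differed from each other more than the IgG lists did, which decides how the comparison can be read. Depleted IP 1 listed 813 sites in 540 genes and depleted IP 2 listed 165 sites in 110 genes, against 498 sites in 374 genes in depleted IgG 1 and 511 sites in 378 genes in depleted IgG 2. The mean was 489 ± 458 sites in IP and 504.5 ± 9.19 in IgG (SD, n = 2 each; two-sided exact permutation p = 1). The longest and the shortest of the 4 lists were both IP lists, so the groups overlapped. With 2 libraries against 2, the smallest p this test can give is 0.333. Sequencing depth is unknown because the lists hold no read counts. As given below, depleted IP 1 had a site in most of the IgG regions and depleted IP 2 in few of them, and regions outside IgG met control IP lists seldom in depleted IP 1 and often in depleted IP 2. Whether each of these libraries is what its label says was not tested, and every count of regions beyond IgG rests on those labels.

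The lists also differed in the values the peak caller attached to them. The authors' false discovery rate was under 5% at 565 sites of depleted IP 1 (69.5%) and at 0 sites of the other 3 lists, where the lowest rate was 25.5% in depleted IP 2, 8.33% in depleted IgG 1 and 9.01% in depleted IgG 2. The authors' score, −10 times log10 of p, was 3100, near its cap, at 500 sites of depleted IP 1 (61.5%) and 126 of depleted IP 2 (76.4%). It was 3100 at 27 sites of depleted IgG 1 (5.42%) and 28 of depleted IgG 2 (5.48%). At this score the Rbm25 sites of depleted IP 1 had a rate of 1.82% and the Skp2 sites of depleted IP 2 one of 25.5%. Equal scores thus had unlike rates in the IP lists. The median fold was 347 in depleted IP 1 and 1386 in depleted IP 2, against 55.6 and 44.6 in the IgG lists (mean 867 ± 734 in IP and 50.1 ± 7.76 in IgG, SD, n = 2 each; exact permutation p = 0.333). Both IP medians were above both IgG medians, but the background library behind these ratios is not known, so the size of that gap is not read further. The median site was 124 and 117 bp wide in IP and 133 and 129 bp wide in IgG, and both IP lists had the narrower sites (difference in mean -10.5 bp, exact permutation p = 0.333).

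Of the 1127 regions, 593 (52.6%) lay in an IP list and in no IgG list. Only 3 of the 1127 (0.266%) lay in both IP lists and in no IgG list, while 436 were held by depleted IP 1 alone and 154 by depleted IP 2 alone. A further 329 regions were shared by depleted IP 1 and both IgG lists, and 139 (12.3%) lay in both IgG lists and in neither IP list. The IP lists also met the IgG lists in opposite ways. Of the regions of depleted IgG 1, 69.5% were also in depleted IP 1 and not in depleted IP 2, 1.00% (5 regions) were in depleted IP 2 and not in depleted IP 1, and 0.602% (3 regions) were in both. For depleted IgG 2 these shares were 69.3%, 0.783% and 0.587%.

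**Figure D1:**
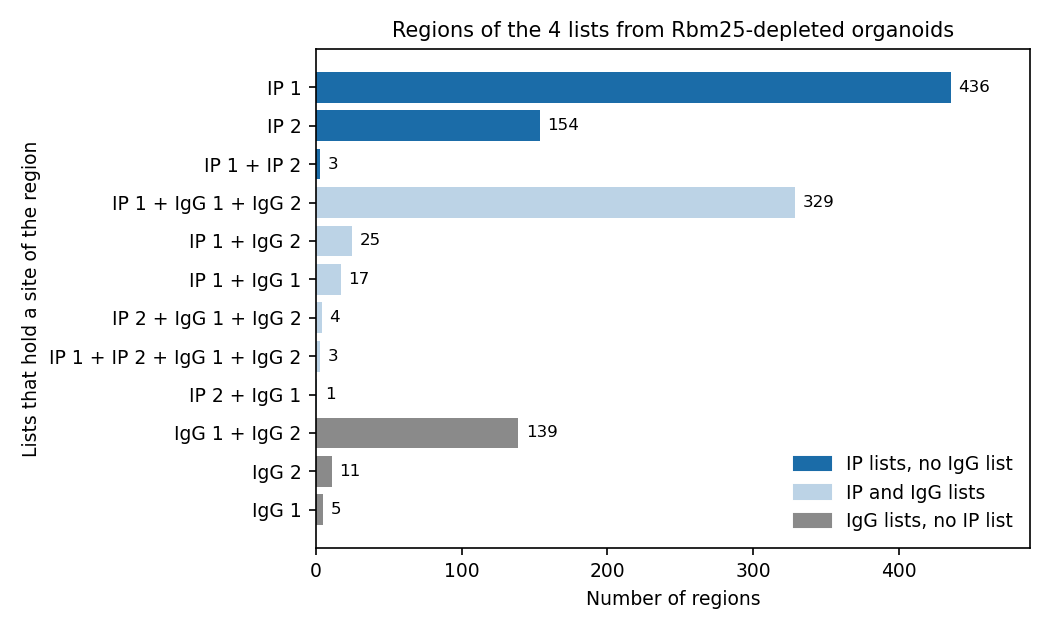
Number of regions (horizontal axis) for each combination of the 4 lists from Rbm25-depleted organoids (vertical axis), with regions of IP lists alone in dark blue, of IP and IgG lists in light blue and of IgG lists alone in grey. The largest class is depleted IP 1 alone (436), followed by depleted IP 1 with both IgG lists (329), and only 3 regions join the IP lists without an IgG list.

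Depleted IP 1 held 439 regions outside both IgG lists, 54.0% of its 813 regions, in 299 of its 540 genes (55.4%). In 252 of these genes every region was outside IgG, and in 47 some regions were also in an IgG list. An IgG site elsewhere in the gene was present for 48 of the 299 genes (16.1%), which leaves 251 genes that the IgG lists do not name at all. Depleted IP 2 held 157 regions outside both IgG lists, 95.2% of its 165 regions, in 106 of its 110 genes (96.4%). Of these 106 genes, 8 (7.55%) had an IgG site elsewhere. The share of IP sites that met no IgG site was thus 54.0% and 95.2% in depleted organoids, against 65.2% and 63.9% in control organoids measured the same way. The depleted libraries lay on either side of the control ones (74.6% ± 29.1 against 64.5% ± 0.876, SD, n = 2 each; exact permutation p = 1).

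Within depleted IP 1, the 439 regions outside IgG had a median fold of 307, with quartiles of 89.9 and 920 and a range of 3.39 to 20768.5. The 374 sites that did overlap an IgG site had a median fold of 466 and ranged from 2.75 to 23738. Regions outside IgG were therefore not those with the highest folds of the list: 102 of them (23.2%) reached a fold of 1000, against 143 (38.2%) of the shared ones. A false discovery rate of 100% was given to 21 of the regions outside IgG (4.78%) and to 76 of the shared sites (20.3%). In the IgG lists that rate was given to 227 sites of depleted IgG 1 (45.6%) and 224 of depleted IgG 2 (43.8%). These sites counted as IgG sites in every overlap. In depleted IP 2 the 157 regions outside IgG had a median fold of 1416, with quartiles of 117 and 4334 and a range of 8.33 to 66494, and 84 (53.5%) reached 1000. The 8 shared sites of that list had a median of 444 and a highest fold of 9525. A rate of 100% was given to 37 of the 157 regions (23.6%).

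**Figure D2:**
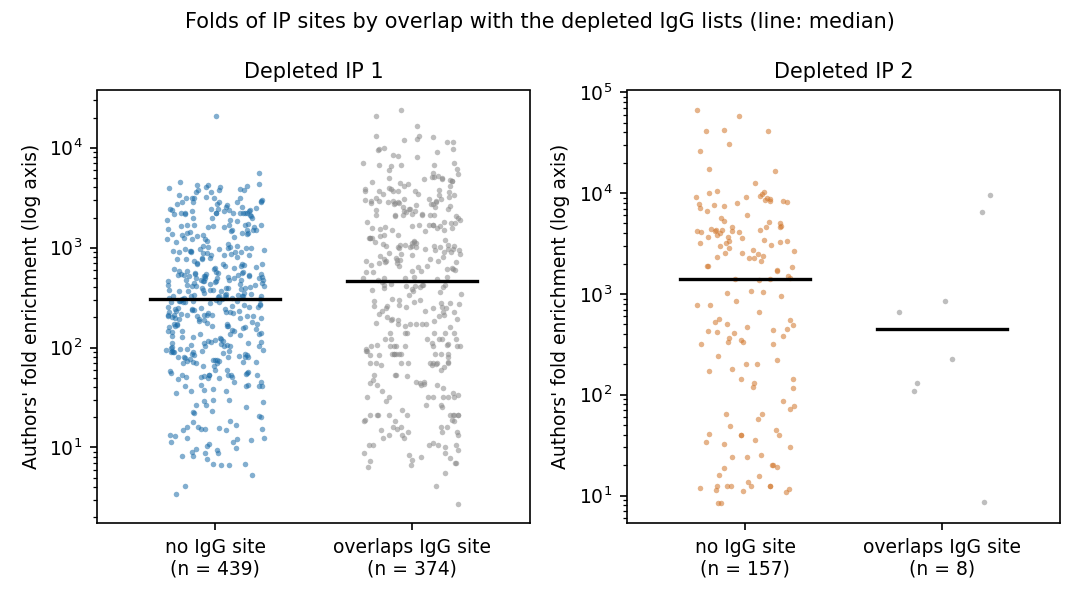
The authors' fold enrichment of every site (vertical log axis) in depleted IP 1 (left) and depleted IP 2 (right), split into sites with no IgG site and sites that overlap one; each point is a site and the black line the median. In depleted IP 1 the medians are 307 and 466 and the clouds overlap over the whole range, while depleted IP 2 has only 8 shared sites.

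Rbm25 itself, the targeted transcript, had 2 sites in depleted IP 1 and none in depleted IP 2, depleted IgG 1 or depleted IgG 2. Both belong to the regions outside IgG, and their folds of 1237 and 1873 are above the median of that class. The gene's product is the antigen, but the lists hold no level of unprecipitated RNA or protein, so the strength of the knockdown was not analysed here.

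In depleted IP 1 no gene had more than 5 regions outside IgG. Nucb1, a calcium-binding protein of the Golgi, had 5 such regions on chromosome 7, with folds of 403, 325, 433, 464 and 917. Col27a1, a fibrillar collagen of cartilage, also had 5, with folds between 29.8 and 319, and 3 more regions that were in both IgG lists. Cdon, a cell-surface co-receptor of Hedgehog signalling, had 4 between 224 and 1392 and 2 more shared with both IgG lists. Supt5, an elongation factor of RNA polymerase II, had 4 between 50.6 and 514, and Dars, the cytosolic aspartyl-tRNA synthetase, had 4 between 201 and 336. In Dars neighbouring regions had an identical fold of 212 and may come from a single peak, and another region was shared with both IgG lists. These genes carried several separate intervals along the transcript that were absent from both IgG lists.

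Epyc, a small leucine-rich proteoglycan known from the cochlea, had 4 regions at the low end of the list, with folds of 9.36, 6.90, 6.71 and 12.04. Myh14, a non-muscle myosin whose mutation causes deafness in humans, had 3 with folds of 3768, 1129 and 3614. Another Myh14 region, with a fold of 608 in depleted IP 1, was in both IgG lists at 7.41 and 14.9. Ubash3b, a phosphatase of the Sts family, had 3 between 1980 and 3160, Smndc1, a spliceosome assembly factor, 3 between 397 and 3108, and Lrch4 3 between 163 and 909. Fam213a, a peroxiredoxin-like gene, had 3 between 156 and 4498. Epyc lay far below the other genes of this group in fold, and in Fam213a the folds differed most between regions of 1 gene.

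The highest fold outside IgG in depleted IP 1 was 20768.5 in Mrps30, a subunit of the mitochondrial ribosome, at 118382876 to 118382997 on chromosome 13. A neighbouring Mrps30 region, 118380607 to 118380669, had nearly the same fold in depleted IP 1 (20751) but was listed in both IgG libraries too, at 291 and 89.2. The gene thus had the highest fold among regions outside IgG and the second highest among shared ones. Next came Fam60a, a component of the SIN3 histone deacetylase complex (5522 and 2709), Fam213a (4498, given above), Snapc1, a subunit of the complex that transcribes snRNA genes (4376 and 2682), and Atp13a1, an endoplasmic reticulum ATPase (4202 and 1351). Atp13a1 also had regions shared with IgG, at 2138 (depleted IgG 2 at 37.2) and 1500 (IgG at 11.1 and 20.3). Fam213a likewise had a region at 406 that depleted IgG 2 shared (9.29). Ercc2, a helicase of TFIIH, had 1 region (4202), Htatsf1, a U2 snRNP partner, 1 (4046), and Sat2, an acetyltransferase, 1 (3959). Ndufs7 had a second region of 1 bp at 4098 beside the one at its start. Cep162, a centriolar protein of the ciliary base, had 2 (3803 and 3820) and Pik3r4, a regulatory subunit of the class III phosphatidylinositol 3-kinase, had 2 (575 and 3768).

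Beside Mrps30, the highest folds of depleted IP 1 that were also in IgG belonged to other genes. Barhl1, a homeobox gene of hair cells, had a fold of 23738 in depleted IP 1, of 455 in depleted IgG 1 and of 256 in depleted IgG 2. Syne4, a nuclear envelope protein needed by outer hair cells, had 16653 in depleted IP 1 and 291 and 111.5 in the IgG lists. Pias3, a SUMO ligase, had 12984 in depleted IP 1 and 208 and 139 in the IgG lists, and Polr3a, the largest subunit of RNA polymerase III, had 12781 in depleted IP 1 and 127 and 33.5 in the IgG lists. These sites were picked for their high fold in depleted IP 1, and other shared sites had the higher fold in IgG. A shared Usp7 region, for example, had 18.9 in depleted IP 1 and 83.4 and 134 in the IgG lists. The highest fold of any site was 23738 in depleted IP 1, 220297 in depleted IgG 1 and 205996 in depleted IgG 2. By the rule of overlap no shared site counts as recovered beyond IgG, whatever the fold in IP.

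**Figure D3:**
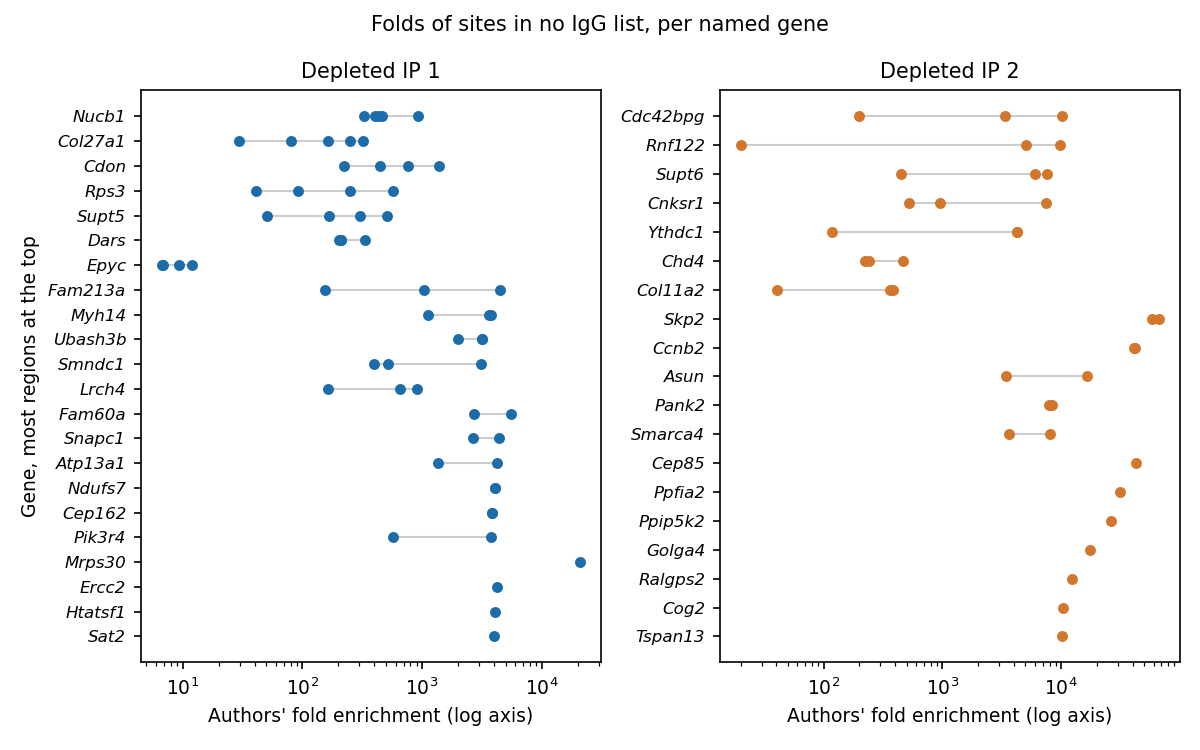
The authors' fold enrichment (horizontal log axis) of each region outside IgG for the genes with the most such regions or the highest folds, in depleted IP 1 (left) and depleted IP 2 (right); each point is a region and a grey line joins the regions of a gene. Epyc lies lowest in depleted IP 1 and Mrps30 highest at 20768.5, while Skp2 lies highest in depleted IP 2 at 66494 and 58743.

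The genes with the most regions or the highest folds in depleted IP 2 were other ones. Skp2, the F-box subunit of the ubiquitin ligase that degrades p27, had 2 regions on chromosome 15 with folds of 66494 and 58743, the highest of the list. Ccnb2, cyclin B2, had 2 on chromosome 9 with 41386 and 41548. Cep85, a centrosomal protein, had 1 at 42559. Skp2, Ccnb2 and Cep85 appeared in neither depleted IP 1 nor the IgG lists. Asun, a subunit of the Integrator complex, had 2 (16585 and 3403), and Smarca4, the BRG1 ATPase of SWI/SNF remodelling, had 2 (8106 and 3656). Supt6, a histone chaperone of transcription elongation, had 3 (6035, 7534 and 444), and Chd4, the ATPase of the NuRD complex, had 3 at the lower folds of 223, 242 and 466.

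Cdc42bpg, a kinase downstream of Cdc42, had 3 regions (3350, 10095 and 200), Rnf122, a RING ubiquitin ligase, 3 (5086, 20.0 and 9690), and Cnksr1, a scaffold of Ras signalling, 3 (7430, 955 and 522.5). Pank2, a pantothenate kinase, had 2 (7900.4 and 8377). Single regions were found in Ppfia2, a synaptic liprin (31035.5), Golga4, a Golgi tether (17491), Ralgps2, a Ral exchange factor (12460), Cog2, a Golgi tethering subunit (10405), and Tspan13, a tetraspanin (10151). Ppip5k2, an inositol pyrophosphate kinase, had a region outside IgG at 26388 and another at 6431 that overlapped a site of depleted IgG 1 (55.6). Col11a2, a collagen of cartilage and the tectorial membrane whose mutation causes deafness, had 3 regions (362, 385 and 40.2), with 2 sites elsewhere in the gene in each IgG list.

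Genes with several regions occurred in both IP lists. Of the genes with a region outside IgG, 113 of 299 (37.8%) had 2 or more in depleted IP 1 and 44 of 106 (41.5%) in depleted IP 2. Sites of 1 gene may come from 1 peak split over the transcript: 18 of the 439 sites in depleted IP 1 and 4 of the 157 in depleted IP 2 shared an identical fold with another site of their gene. Counting such sites once left 430 and 155 peaks, or 429 and 155 when a peak with any site in an IgG list was left out whole.

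Only 15 genes had a site in both IP lists, 2.78% of the genes of depleted IP 1 and 13.6% of those of depleted IP 2. Of these, 8 had no IgG site. The 3 regions that both IP lists held outside IgG lay in Gas2, Wdr89 and Rps3. Gas2, a cytoskeletal growth arrest gene, had its common region on chromosome 7 at 51993422 to 51993828 in depleted IP 1 (fold 124.5) and 51993291 to 51993492 in depleted IP 2 (fold 1039). Depleted IP 2 had a second Gas2 region at 3857. Wdr89 had 1 site in each IP list (104 and 77.9), at false discovery rates of 100% and 70.2%, and both IgG lists of control organoids also held this region. With sites under a rate of 100% alone, 2 regions joined the IP lists outside IgG. Rps3, a small-subunit ribosomal protein that also takes part in DNA repair, had 4 regions in depleted IP 1 (40.9, 91.6, 252 and 569) and 1 in depleted IP 2 (86.0), which met the first of these. The sites in these genes overlapped in part and had no common boundary.

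The other 5 genes were named by both IP lists at different places. Senp2, a SUMO protease, had folds of 138 and 197 in depleted IP 1 and of 20.0 and 45.0 in depleted IP 2. Slc44a1, a choline transporter, had 764 and 583 in depleted IP 1 and 24.3 in depleted IP 2. Ift172, an intraflagellar transport subunit, had 472 in depleted IP 1 and 11.3 in depleted IP 2. Eif4g2, a translation initiation factor, had 10.9 in depleted IP 1 and 145 in depleted IP 2, and Igfbp5, an IGF-binding protein, had 6.71 and 33.6. All depleted IP 2 sites of Senp2, Slc44a1 and Ift172 had a false discovery rate of 100%.

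The other 7 genes of both IP lists also had a site in an IgG list. Rbm39, a splicing coactivator, had the same 54 bp interval in all 4 lists, with folds of 277 in depleted IP 1, 131 in depleted IP 2, 9.88 in depleted IgG 1 and 19.8 in depleted IgG 2. Ythdc1, the nuclear reader of m6A, had 1 region in all 4 lists (139 and 859.5 in IP, 728 and 46.8 in IgG) and 3 further ones in depleted IP 2 alone (4278, 4210 and 117). Srsf2, an SR splicing factor, had regions in every list but none outside IgG, the highest being 71.9 in depleted IP 1, 224 in depleted IP 2, 168 in depleted IgG 1 and 74.2 in depleted IgG 2. Safb2, a scaffold attachment factor, had a region of depleted IP 2 outside IgG (4647), while its site in depleted IP 1 (628) overlapped one of depleted IgG 2 (19.4). The depleted IP 2 region of Safb2 met a site of control IgG 2 and none of the control IP lists. S100a13, a calcium-binding secretion factor, had a region in all 4 lists (7.07 and 9525 in IP, 20.4 and 134 in IgG). Col9a1, a chain of collagen IX, had regions outside IgG in both IP lists (15.6 in depleted IP 1, 5641 and 1708 in depleted IP 2) and IgG sites elsewhere in the gene. Another Col9a1 site of depleted IP 1 (1555) overlapped a site of both IgG lists (19.45 and 41.8). The seventh name is a predicted gene.

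Among 15 lists of genes by function, 20 of 79 splicing factors and U1 partners had a site in depleted IP 1, and 10 of these had a region outside IgG, against 55.4% of all genes of that library. Snrpd2 and Snrpb, core proteins of the spliceosomal snRNPs, had folds up to 3160 and 2344, Rbm25 up to 1873, and Clk1, a kinase of SR proteins, 355. The other 6 were Sf3b2, Prpf40b, Ddx17, Srrm1, Srrm2 and Pnn, between 53.0 and 329 at their highest. Luc7l2, a U1 partner, and Srsf7, an SR protein, were present in depleted IP 1 only at sites that IgG shared. In depleted IP 2, 4 splicing genes had a site and 2 a region outside IgG, against 96.4% of all genes there: Srsf1 (568) and Ccnl2, a cyclin of splicing kinases (13.8). The Ccnl2 site had a false discovery rate of 100%, and depleted IgG 2 had a site elsewhere in that gene (37.2). Of the hnRNP and other RNA-binding protein genes, 6 of 7 in depleted IP 1 had a region outside IgG, among them Mbnl2, a regulator of alternative splicing (108), Ybx1 (85.2) and Sfpq (79.0), and depleted IP 2 had 0.

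Of 83 cytosolic ribosomal protein genes, 18 had a site in depleted IP 1 and 15 of these a region outside IgG, beside 55.4% of all genes of that library, led by Rps3 (569), Rps9 (367), Rpl23a (302) and Rplp2 (238). In depleted IP 2 they were Rpsa (770 at its highest), Rplp1 (420) and Rps3, 3 of 3, beside 96.4% of all genes there. These genes have near-identical pseudogenes, so which copy a site belongs to is uncertain. Their folds in depleted IP 1 were low for that list, with a median over the 15 genes of 112, against 319 over all 299 genes. Translation factors had 2 of 4 genes outside IgG in depleted IP 1, Eif2s2 (901) and Eif4g2, and 2 of 2 in depleted IP 2, Pabpc1, the poly(A)-binding protein (506), and Eif4g2.

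Among chromatin regulators, depleted IP 2 had 5 of 5 outside IgG, where 96.4% of all its genes were: Smarca4, Dnmt3a, a DNA methyltransferase (4317), Kdm6a, a histone H3K27 demethylase (2275), Chd4 and Kdm2b (8.33). Depleted IP 1 had 2 of 5, where 55.4% of all its genes were: Brd8 (686) and Arid2, a SWI/SNF subunit (547). None of the 5 genes of depleted IP 2 had a site in depleted IP 1. The same library shares of 55.4% and 96.4% stand behind the following small counts. Cell cycle genes were outside IgG in 3 of 3 cases in depleted IP 1, Gas2, Cdkn1c, the p57 inhibitor (90.2), and Id2 (11.4), and in 4 of 4 in depleted IP 2, Skp2, Ccnb2, Gas2 and the helicase subunit Mcm7 (15.6). Apoptosis genes were Bcl2 (291) and Mdm4 (53.0) in depleted IP 1, 2 of 2, and 0 in depleted IP 2. Histone genes had 1 of 4 outside IgG in depleted IP 1 (H1f0, 20.8). Ubiquitin ligase genes had 2 of 2 outside IgG in depleted IP 2 (Rnf165, 178, and Cul7, 10.9). The depleted IP 2 sites of Kdm2b, Mcm7, Rnf165 and Cul7 had a false discovery rate of 100%.

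In the lists that follow, the shares to set the counts against are again 55.4% of all genes for depleted IP 1 and 96.4% for depleted IP 2. Of 52 stereocilia and deafness genes, Myh14 was the one with a site in depleted IP 1, and Slc26a4, the anion exchanger pendrin, the one in depleted IP 2, with 2 regions outside IgG at folds of 4620 and 2307. Extracellular matrix genes had 7 of 10 outside IgG in depleted IP 1, led by Col1a2 (2120), Col27a1 (319), Col9a3 (176) and Col2a1, the cartilage collagen (70.6), and 2 of 2 in depleted IP 2, Col9a1 and Col11a2. Cilium and planar polarity genes had 3 of 6 in depleted IP 1, Ift172 (472), Ift57 (146) and Celsr1, a planar polarity cadherin (89.6), and 2 of 2 in depleted IP 2, Evc (64.7) and Ift172. The depleted IP 2 sites of Evc and Ift172 had a false discovery rate of 100%. Wnt genes were Rnf43, an inhibitor of Wnt receptors (75.5), in depleted IP 1, 1 of 3, and Bcl9l, a beta-catenin cofactor (4358), in depleted IP 2, 1 of 1. Oxidative metabolism genes had 1 of 4 in depleted IP 1 (Ndufs7), and none of 27 Notch genes had a site in any of the 4 lists.

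**Figure D4:**
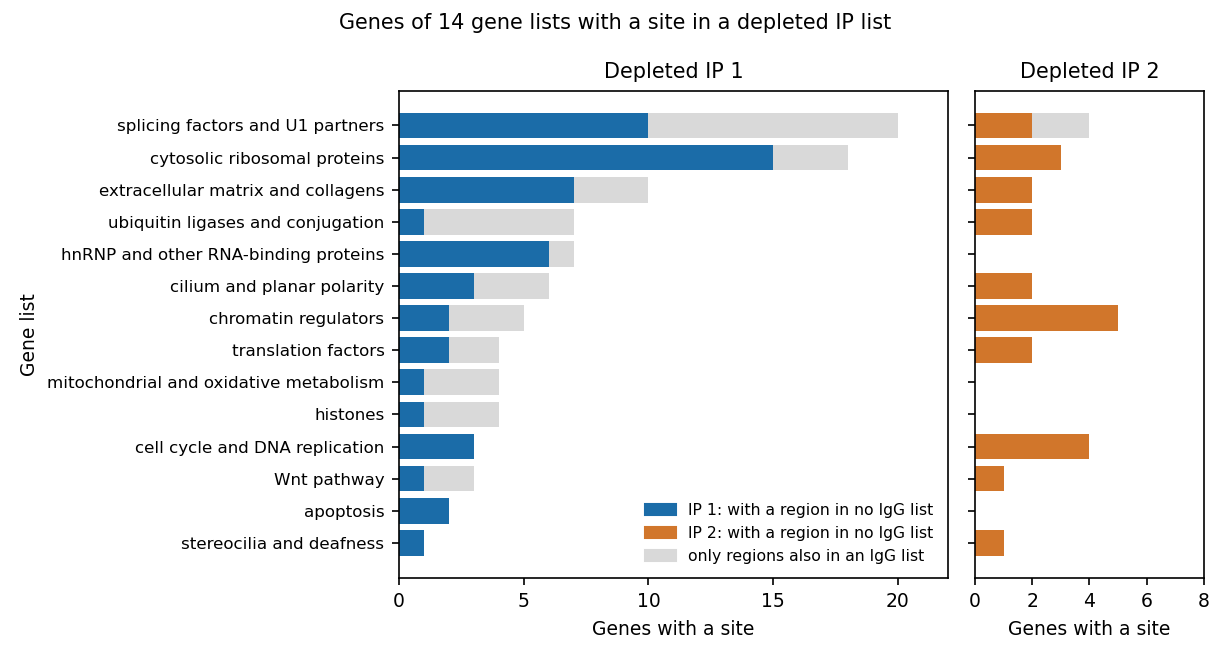
Number of genes with a site in depleted IP 1 (left, blue) and depleted IP 2 (right, orange) for the 14 gene lists with any such gene; the coloured part counts genes with a region in no IgG list and the grey part genes whose regions were all shared with IgG. Ribosomal protein genes (15 of 18) and splicing factors (10 of 20) have the longest coloured bars in depleted IP 1, and chromatin regulators (5 of 5) in depleted IP 2.

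Cell type markers were checked against the 4 lists, which together name 706 of 21900 protein-coding genes of the RefSeq table (3.22%). By itself, depleted IP 1 names 518 of the 21900 (2.37%) and depleted IP 2 names 105 (0.479%). Of 11 hair cell markers 1 was listed, Barhl1, in depleted IP 1 and both IgG lists, and Pou4f3, Atoh1 and Myo7a had no site. Of 17 supporting cell markers 2 were listed, Sox9 in depleted IP 1 (22.5) and Sox10 in depleted IP 1 (183) and depleted IgG 1 (4.76), and Sox10 was also the 1 listed of 5 glia markers. Of 11 mesenchyme markers 3 were listed, Col1a2, Sparc (up to 25.3) and Vim (65.3), all in depleted IP 1 alone. Neuron, immune, and endothelial and melanocyte markers were at 0 of 7, 0 of 6 and 0 of 6 in all 4 lists, and depleted IP 2 held none of the markers of any of these cell types. With so few genes named in depleted IP 2, its lack of markers says nothing about cell types. The part of the mesenchyme genes in the collagen count of depleted IP 1 was not tested. Hbb-bs, a haemoglobin chain of red blood cells, had a site in depleted IP 2 (9121) and in no other of the 4 lists; this gene was chosen after its value was seen.

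The reverse set, 139 regions in both IgG lists and neither IP list, lay in 112 of the 394 genes that the IgG lists name (28.4%). Mical3, an actin-oxidising monooxygenase, led it with 2 regions, at 14759 and 18806 in depleted IgG 1 and 29045 and 4330 in depleted IgG 2. Usp7, a deubiquitinase, had 1 (10028 and 14185), Spg20, spartin, 1 (11564 and 5610), and Rpl36al, a ribosomal protein, 1 (8928 and 1077). Galnt7, a mucin-type glycosyltransferase, had 2 (4157 and 4155 in depleted IgG 1, 11182 and 6701 in depleted IgG 2) and Ibtk, a kinase inhibitor, 2 (2521 and 2006, 3880 and 1286). Ccdc30, Gmeb1 and the ubiquitin ligase adaptor Klhl20 also had 2 each, all with folds under 310. These IgG sites, were absent from both IP lists, although Usp7 had 2 other regions that depleted IP 1 shared with both IgG lists.

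The regions outside IgG lay at like places in genes in both IP lists. Of sites inside the annotated interval of their gene, 35.4% of those outside IgG in depleted IP 1 and 38.6% in depleted IP 2 lay within 10% of the gene's length from either gene end, against 39.1% and 37.9% in the IgG lists. The genes with a region outside IgG had a median length of 21.8 kb in depleted IP 1 and 32.0 kb in depleted IP 2, against 32.3 kb and 27.8 kb for the genes of the IgG lists. Exon, intron and UTR content was not analysed here.

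Set beside control organoids, the regions that each depleted IP list held beyond IgG met different lists. Of the 157 regions of depleted IP 2, 65 (41.4%) met a site of control IP 1, 58 (36.9%) one of control IP 2, and 1 and 2 a site of control IgG 1 and control IgG 2. Of the 439 regions of depleted IP 1, 12 (2.73%) met a site of control IP 1, 14 (3.19%) one of control IP 2, and 13 and 20 one of the control IgG lists, and 400 (91.1%) met no control list. Among all genes with a region outside IgG, 54 of 106 in depleted IP 2 and 15 of 299 in depleted IP 1 had such a region in a control IP list. Of the 12 genes with the highest folds in depleted IP 2, 10 had a region in a control IP list, the exceptions being Ppfia2 and Golga4, against 0 of the 12 of depleted IP 1. Skp2, Ccnb2, Cep85, Smarca4 and Supt6 thus had a region that an IP list of control organoids also held, and the depleted IP 2 regions of Chd4, Dnmt3a, Slc26a4 and Col11a2 met none. In depleted IP 2 the 72 regions in a control IP list had a median fold of 2297 and the other 85 one of 1068, while a false discovery rate of 100% was given to 30 of the 72 (41.7%) and to 7 of the 85 (8.24%). In depleted IP 1 the 15 such regions, among them Gas2, Wdr89, Igfbp5, Ybx1, Id2 and Col9a2, had a median fold of 85.2 and the other 424 one of 325.

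**Figure D5:**
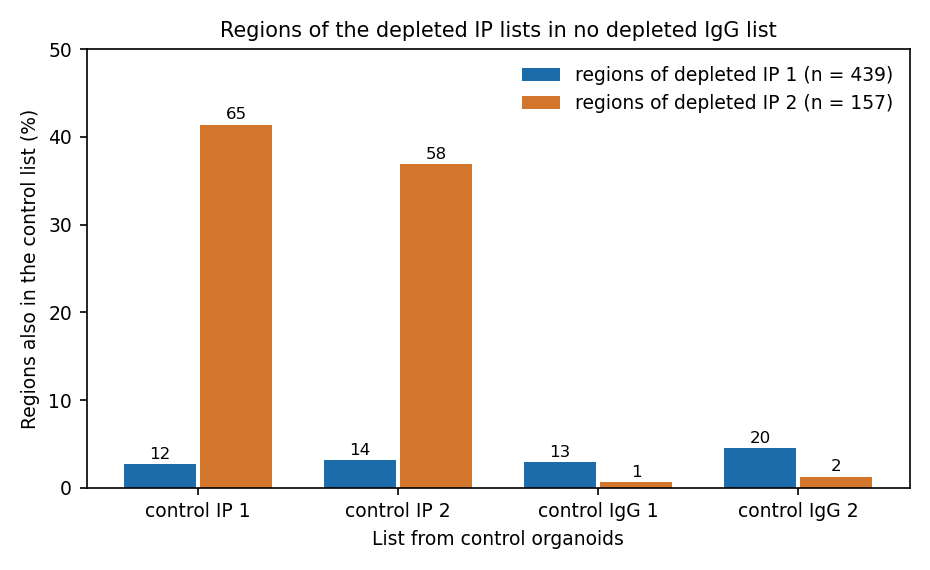
Share of the regions in no depleted IgG list (vertical axis, percent) that also meet a site of each list from control organoids (horizontal axis), for depleted IP 1 (blue, 439 regions) and depleted IP 2 (orange, 157 regions); numbers above bars are counts of regions. Depleted IP 2 reaches 41.4% and 36.9% in the control IP lists, and depleted IP 1 stays under 5% in every control list.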

How the data were processed

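RNA was sequenced after immunoprecipitation with anti-RBM25 or IgG. The tools cutadapt 1.9.3 and HISAT2 2.0.4 and the build mm8 appear in the submitters' processing notes. For the peak caller, a name, a version and a background library were not given in the sources used here. The authors deposited, per library, sites assigned to mRNAs with a fold enrichment (a linear ratio), a score of −10 times log10 of p (capped near 3100, per the file headers), a false discovery rate in percent, and a width in bp. Starts were counted from 0 and are printed from 1. The coordinates match GRCm38 gene intervals, not the mm8 named in the notes: 97.0% and 97.5% of the sites of the IP lists outside IgG lay inside their gene in RefSeq's GRCm38.p6 table. Of 735 gene names, 723 carried a GeneID and 722 matched that table.

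Regions were built with pandas 2.3.3 on Python 3.11.15, by an overlap of 1 bp or more, and the merging was tested on simulated data. No region held more than 1 site of a library (0 exceptions). The lists labelled Input were not used. Libraries were compared by two-sided exact permutation (numpy 2.4.6). The design text places the split into IgG and IP after the harvest of numbered replicates. Same-numbered IP and IgG libraries were therefore read as possible pairs. The p-values above come from permutation tests that do not use this pairing, and a paired test is among the alternatives below. Over the 1127 regions the deviations of same-numbered libraries correlated at -0.00816.

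Named genes were Rbm25, the 12 genes per IP list with the most regions outside IgG and the 12 with the highest folds, every gene in both IP lists, up to 4 members per gene list, the 6 highest sites shared with IgG, and for regions of IgG alone 6 genes by count and 6 by mean fold. Further members named in groups, and genes at annotated starts, were chosen after their values were seen. Predicted genes were counted and not named, and a few genes that the rule names are not reported here. The members and the lists were chosen with earlier results of these data known, so no p-value is given over them. Alternatives were other overlaps, units, thresholds, widths, pairing and left-out libraries.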

Additional observations from a re-analysis of the deposited data

How the results depend on the processing

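Over 75 combinations of a result and an alternative, 58 were called the same, 13 moved and 4 changed sign. Counts of regions were called the same within a ratio of 1.5. Differences between groups of libraries were called the same whenever they kept their sign, whatever their size. For the 17 that moved or changed sign, the cause was not tested unless named here. Counting genes in place of regions gave 251 for depleted IP 1, 98 for depleted IP 2 and 8 for both, and counting only genes in none of the 4 IgG lists, control organoids included, an alternative added after seeing the data, gave 235 and 96. Keeping in each list only the sites not under its median fold left 81 regions in depleted IP 2 and 0 in both IP lists, since the lower sites had been removed. Sites of 100 bp or wider left 248 and 90 regions outside IgG and 83 in IgG alone, again from fewer sites. With only sites under a false discovery rate of 100% kept in every list, IgG included, depleted IP 1 had 590 regions outside IgG. Depleted IP 2 then had 122, and 152 lay in IgG alone. Leaving out an IgG library gave 456 to 464 regions for depleted IP 1, 157 to 158 for depleted IP 2, and 3 for both. Leaving out an IP library turns the regions of both IP lists into those of 1 list, so that count became 157 and 439, and the regions in IgG alone ran from 143 to 468: without depleted IP 1, which holds 329 regions of both IgG lists, they were 468. The difference in number of sites (-15.5) became 143 with sites under a false discovery rate of 100% and ran from -339.5 to 308.5 with a library left out. The difference in the share outside IgG (10.0 points) became -7.34 under that rate and ran from -10.5 to 30.6 with an IP library left out, so its sign rests on depleted IP 2. The difference in median fold ran from 297 to 1336 and that in median width from -14 to -7 bp with a library left out; the width difference was -5.5 bp with sites under a rate of 100% and -2 bp with sites of 100 bp or wider, and the fold difference 1479 and 480. With the replicate block, depleted IP 1 had 464 regions outside IgG 1 and depleted IP 2 158 outside IgG 2, and the paired exact permutation p was 1 for number of sites and 0.5, the smallest it allows, for fold and width. Neither the paired nor the unpaired test could give a p under 0.05 with so few libraries, so pairing could change no call. Depth, and with it the weakest site a list could hold, is unknown.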
